A study of Ovis aries with 18 samples.

Results

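The table of sperm DNA methylation listed 1850625 cytosines, and 14866 of them (0.803%) lay on unplaced contigs, the pieces of the sheep genome assembly that have no position on a chromosome. They were chosen by name alone, as every cytosine whose sequence is neither a numbered chromosome nor chromosome X, and no methylation value entered the choice. They were spread over 639 contigs and were set against 1813357 cytosines on 26 numbered chromosomes. Sperm DNA of 6 Polypay rams was measured by reduced representation bisulfite sequencing (RRBS). In this assay, the genome is cut with an enzyme into CpG-rich fragments, and bisulfite then converts the cytosines that carry no methyl group, which are counted as unmethylated reads. Ram410, Ram423 and Ram444 ate a basal diet (control), and Ram424, Ram498 and Ram511 ate the same diet to which methionine in a rumen-protected form was added (1.5 g, or 0.22%). The diets were fed before puberty, and semen was taken once the feeding period was over. The ram was the replicate, with 3 rams per diet.

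Methionine feeds the one-carbon cycle, which supplies the methyl groups that methyltransferases place on cytosines. In mammalian sperm most CpG sites are either nearly free of methylation, as in CpG islands, or almost fully methylated, so that a level in between is uncommon over unique sequence. Unplaced contigs in a mammalian assembly often hold repeats, such as satellite arrays and recent duplications, which are difficult to anchor. What the contigs studied here contain was not examined, since neither their sequence nor a gene annotation of Oar_rambouillet_v1.0, the build of the table, was used here, and for the same reason the labelled cell type, sperm, was not checked against its marker regions. The methods state a lysis of somatic cells before the sperm DNA was extracted.

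Depth and library properties were compared first. Coverage summed over all cytosines of the table ranged from 44504409 to 75603721 per ram. This sum counts a read once at every cytosine it covers, so it is not a number of reads. Every listed cytosine had at least 10 reads in every ram. In Ram498 and Ram511, coverage on the chromosomes depended on the methylation level. Mean coverage at unmethylated cytosines was 3.34 times that at methylated cytosines in Ram498 and 1.94 times in Ram511, against 0.956 to 1.02 times in the other 4 rams. Both rams received methionine, so results by diet are also given without them.

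Among the cytosines listed, those on contigs had a higher mean methylation level than those on chromosomes in every ram. The level of a cytosine is the percentage of its reads that were methylated, and the mean gives each cytosine the same weight. On contigs the mean level was 28.3% in Ram410, 31.0% in Ram423, 29.2% in Ram444, 29.7% in Ram424, 25.3% in Ram498 and 26.9% in Ram511. On the numbered chromosomes it was 12.5% in Ram410, 13.1% in Ram423, 13.5% in Ram444, 13.5% in Ram424, 12.0% in Ram498 and 12.3% in Ram511. The ranges did not overlap, and the lowest ram on contigs stood far above the highest ram on chromosomes. The difference within a ram was 15.6 ± 1.55 points (SD, n = 6 rams) and had the same sign in 6 of 6 rams, with an exact two-sided sign-flip permutation p of 0.03125. This is the smallest p that 64 arrangements allow, and it became 0.0357 after Benjamini-Hochberg adjustment over 16 comparisons of contigs with chromosomes. Chromosome X, at 8.97% to 10.4%, was lower still. All these levels are of cytosines with at least 10 reads in every ram. Methylated chromosome cytosines had a mean coverage of 12.9 reads in Ram498, near this minimum. How far the minimum shaped the chromosome mean was not tested, since cytosines below it are not listed. A minimum of 20 reads kept 38.6% of chromosome cytosines with a level under 20% and 1.89% of those over 80%. On contigs it kept 58.1% and 40.1%, and the level difference was then 25.6 points. Within classes of mean coverage, given below, the difference ranged from -7.19 points at 200 reads or more to 20.7 points at 50 to 100 reads. At 10 to 25 reads it was 4.69 points.

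The form of the distribution differed more than its mean. Chromosome cytosines were split between low and high levels, while most contig cytosines lay between 20% and 80%, a class called intermediate here. The intermediate share on contigs was 56.7% in Ram410, 60.4% in Ram423, 57.7% in Ram444, 58.7% in Ram424, 51.5% in Ram498 and 54.5% in Ram511, whereas on chromosomes it was 4.64% to 5.88%. The difference was 51.4 ± 2.84 points (SD, n = 6, exact sign-flip permutation p = 0.03125, adjusted p = 0.0357). Unmethylated cytosines, with a level under 20%, made up 35.8% to 46.1% of contig cytosines and 84.1% to 86.2% of chromosome cytosines, a difference of -44.8 ± 3.0 points (SD, n = 6, exact sign-flip permutation p = 0.03125). Methylated cytosines, with a level over 80%, made up 2.43% to 3.77% on contigs and 9.16% to 10.2% on chromosomes, a difference of -6.59 ± 0.305 points (SD, n = 6, exact sign-flip permutation p = 0.03125). With a minimum of 20 reads in every ram, the methylated share was 2.03% on contigs and 0.627% on chromosomes, so that the difference turned to 1.41 points. This minimum kept 40.1% of the contig cytosines with a mean level over 80% but only 1.89% of such chromosome cytosines, which had a mean coverage of 12.9 reads in Ram498. By mean coverage, the methylated share was lower on contigs at 10 to 25 reads (4.37% against 19.8%), at 50 to 100 reads (3.43% against 4.18%), at 100 to 200 reads (1.91% against 4.85%) and at 200 reads or more (0.847% against 6.49%), and higher at 25 to 50 reads (3.58% against 2.503%). With the same minimum the difference in mean level was 25.6 points. A level of exactly 0 was found at 11.4% to 13.2% of contig cytosines and at 61.5% to 70.6% of chromosome cytosines. Although contigs held 0.803% of all cytosines, they held 8673 of the 109217 cytosines (7.94%) whose mean level over the rams was 20% to 80%.

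**Figure D1:**
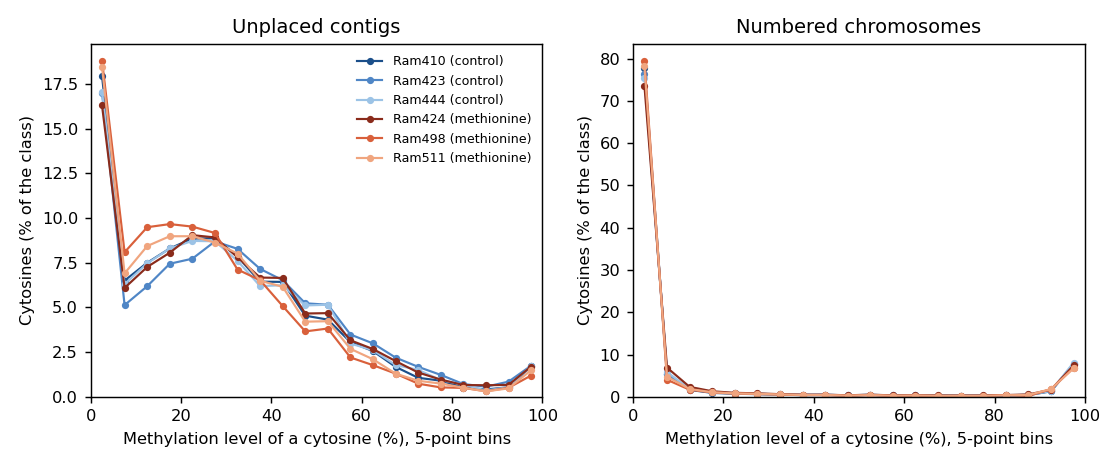
Percentage of cytosines (vertical axis, separate scale in each panel) by methylation level in 5-point bins (horizontal axis, %), with one line per ram, for unplaced contigs (left) and numbered chromosomes (right). Contig cytosines form a broad shoulder below 60%, whereas chromosome cytosines sit at the 2 ends of the scale, and the lines of Ram498 and Ram511 are higher than those of the other rams between 5% and 20% on contigs.

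Contig cytosines were also covered by more reads. Mean coverage on contigs was 177 reads in Ram410, 161 in Ram423, 160 in Ram444, 155 in Ram424, 199 in Ram498 and 186 in Ram511, against 23.1 to 39.7 reads on numbered chromosomes. The ratio of contig to chromosome coverage was 7.48 in Ram410, 6.21 in Ram423, 6.75 in Ram444, 6.71 in Ram424, 5.03 in Ram498 and 5.80 in Ram511. On the log2 scale the ratio was 2.65 ± 0.20 (SD, n = 6 rams, exact sign-flip permutation p = 0.03125, adjusted p = 0.0357). A minority of very deeply covered cytosines carried much of this excess, since the ratio of medians gave a log2 value of 0.718, and leaving out the cytosines of most extreme coverage in any ram gave 1.03. Median coverage was 39 to 48 reads on contigs and 22 to 39 on chromosomes. Contigs supplied 3.92% to 5.73% of the coverage summed over the table. Of the 4936 cytosines in the table with a mean coverage of 100 reads or more, 4013 (81.3%) were on contigs. These made up 27.0% of contig cytosines, against 0.0509% of chromosome cytosines. The excess of coverage was present at every level. In the mean over the rams it was 6.13 ± 0.313 times for cytosines under 20%, 5.33 ± 0.265 times for those of 20% to 80% and 3.78 ± 0.766 times for those over 80% (SD, n = 6). The ratios of medians were smaller, 1.43, 2.22 and 1.59 times, and put the class of 20% to 80% highest. No count of the copies of a contig in the genome was available to set beside these ratios.

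Because contigs lay above chromosomes in both mean level and coverage, they were compared within classes of mean coverage. This comparison was added after the values were seen. At 10 to 25 reads, the intermediate share was 54.4% ± 3.24 on contigs and 7.92% ± 0.436 on chromosomes (SD, n = 6). At 25 to 50 reads it was 48.9% ± 2.71 against 3.16% ± 0.534, and at 50 to 100 reads 60.4% ± 3.17 against 9.61% ± 0.858. At 100 to 200 reads it was 64.8% ± 3.71 against 34.7% ± 2.43. In each of these 4 classes the share was higher on contigs in 6 of 6 rams (exact sign-flip permutation p = 0.03125, adjusted p = 0.0357). At 200 reads or more the shares were 64.2% ± 4.04 and 60.4% ± 4.24, and the difference of 3.82 points did not exceed the spread between rams (exact sign-flip permutation p = 0.1875), with Ram511 at -6.59 points. The contig share thus ranged from 48.9% to 64.8% over the classes, while that of the chromosomes ranged from 3.16% to 60.4%. The mean level behaved differently. The excess on contigs was 4.69 points at 10 to 25 reads, 20.6 points at 25 to 50 reads, 20.7 points at 50 to 100 reads and 8.53 points at 100 to 200 reads, positive in 6 of 6 rams each time. At 200 reads or more, 349 chromosome cytosines had a mean level of 36.7% ± 6.58 and 2302 contig cytosines had 29.6% ± 2.43, a difference of -7.19 points that was negative in 5 of 6 rams (exact sign-flip permutation p = 0.0625).

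**Figure D2:**
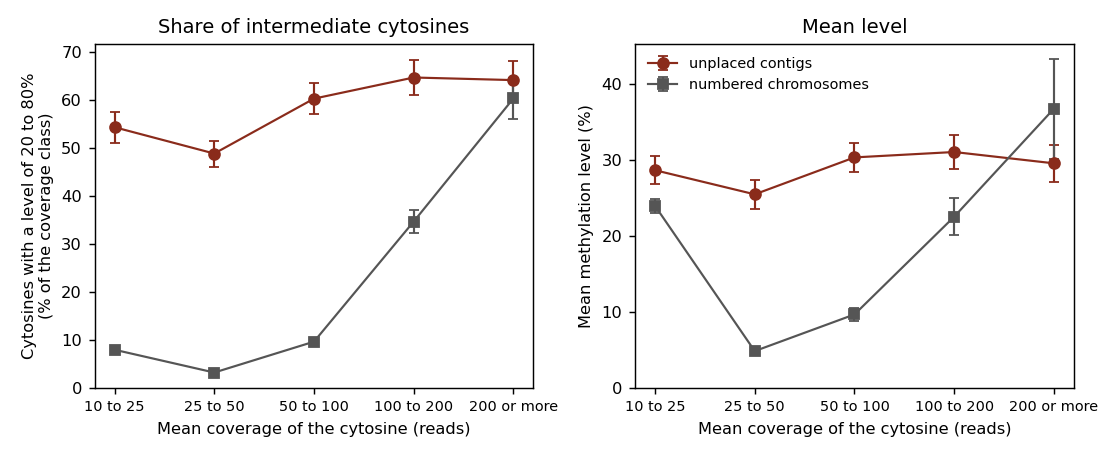
Share of intermediate cytosines (left, %) and mean methylation level (right, %) by mean coverage of the cytosine (horizontal axis, reads), as means of 6 rams with SD bars, for unplaced contigs (circles) and numbered chromosomes (squares). The contig share stays between 48.9% and 64.8%, and the chromosome share rises from 3.16% at 25 to 50 reads to 60.4% at 200 reads or more.

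At intermediate cytosines the spread between rams was smaller on contigs than on chromosomes. At cytosines with a mean level of 20% to 80% and a mean coverage of 25 to 50 reads, the median SD between rams was 9.07 points on contigs, where counting error alone gave 8.35 points. The same median was 12.7 points on chromosomes, where counting error gave 8.82 points. At 200 reads or more the medians were 4.41 points on contigs and 9.60 points on chromosomes, where counting error alone gave 2.45 and 2.02 points. In all 5 coverage classes the median SD was lower on contigs. All 6 rams were intermediate at 57.2% of the contig cytosines of the 25 to 50 read class, against 32.2% of those on chromosomes. Across the 4013 contig cytosines of at least 100 reads, Pearson's r between the levels of a pair of rams was 0.873 to 0.945 over the 15 pairs, and across 923 such chromosome cytosines it was 0.702 to 0.959. This describes cytosines that share libraries and sites and are not independent. These values were not tested.

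Neighbouring cytosines were then compared. For cytosines on the same strand with at most 50 bp between them, the median gap was 11 bp on contigs and 7 bp on chromosomes. Pearson's r of the mean levels was 0.602 over 11410 pairs on contigs and 0.971 over 1527030 pairs on chromosomes, given as a description across sites of the same libraries whose levels are spread differently on contigs and chromosomes. Where the first of a pair was intermediate, the second was intermediate as well in 77.4% of pairs on contigs and 70.0% on chromosomes. Over all cytosines, 8673 of 14866 on contigs and 99635 of 1813357 on chromosomes were intermediate in mean level. The share among such neighbours was thus much further above that of all cytosines on chromosomes than on contigs. The median difference between the members of such a pair was 13.1 points on contigs and 10.3 points on chromosomes. A CpG site has a cytosine on each strand, and the partner on the opposite strand was listed for 27.2% of contig cytosines but for 60.3% of chromosome cytosines. At intermediate CpG sites covered by fewer than 50 reads, the strands differed by 12.6 ± 1.01 points on contigs (207 sites) and 10.8 ± 0.552 points on chromosomes (24131 sites, SD, n = 6 rams). The strand difference was larger on contigs in 6 of 6 rams, by 1.80 ± 1.09 points (SD, n = 6, exact sign-flip permutation p = 0.03125, adjusted p = 0.0357).

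Contigs ranged widely in size. The median contig held 8 cytosines, 31 contigs held only 1, and the last listed cytosine lay at a median position of 12391. The 146 contigs with at least 20 cytosines held 11339 (76.3%) of the contig cytosines, and the 10 with most held 3676. The mean level was higher on contigs with few cytosines. It was 56.3% over the 31 contigs with 1 cytosine, 40.1% over the 162 contigs with 2 to 4, 35.6% for 5 to 9, 33.4% for 10 to 19, 29.8% for 20 to 49, 30.04% for 50 to 99 and 23.9% over the 35 contigs with 100 or more. Without KZ319282.1, the last value was 26.3%.

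Among the 146 contigs with at least 20 cytosines, the median level was 30.1% (quartiles 26.5% and 34.0%). Numbered chromosomes lay between 8.98% and 17.9%. Of the contigs, 120 were above every numbered chromosome, 14 were below every one, and 118 had a level of 20% to 50%. The intermediate share had a median of 65.3%, exceeded that of every numbered chromosome (at most 7.62%) in 132 contigs, and exceeded 50% in 113. In 43 contigs no cytosine was above 80% in any ram. The contig to which a cytosine belonged accounted for 24.1% of the variance of the mean levels of these cytosines. Coverage relative to the chromosomes had a median ratio of 3.85, from 0.736 to 108, with 113 contigs above 2 and 29 above 10. Numbered chromosomes themselves lay between 0.941 and 1.28.

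**Figure D3:**
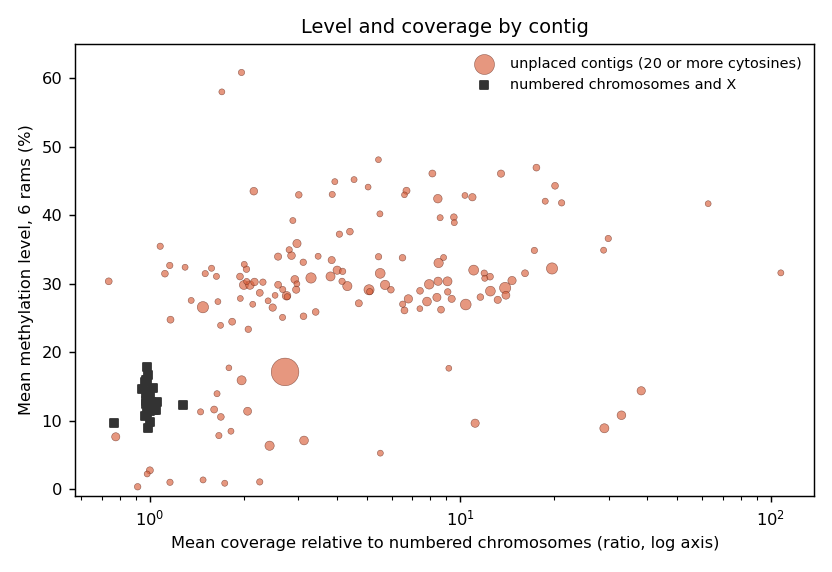
Mean methylation level over 6 rams (vertical axis, %) against mean coverage relative to numbered chromosomes (horizontal axis, ratio, log scale) for 146 contigs (circles, area grows with the number of cytosines) and for the numbered chromosomes and X (squares). The chromosomes group near a ratio of 1 and below 20%, while 118 contigs lie between 20% and 50% at ratios from 0.736 to 108.

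The contig with most cytosines, KZ319282.1, differed from the others and was mixed within itself. It held 1802 cytosines (12.1%), its last one at position 7638560, while the next longest contig, PEKD01005048.1, ended at position 483124. Its mean level was 16.8% in Ram410, 18.6% in Ram423, 17.5% in Ram444, 18.2% in Ram424, 15.4% in Ram498 and 16.2% in Ram511. Its mean of 17.1% lay within the range of the numbered chromosomes, and in Ram423 it was above their highest, chromosome 19 at 18.2%. Its parts were unlike each other. From position 107248 to 2960254, 866 cytosines had a mean level of 7.99% ± 0.725 (SD, n = 6) and an intermediate share of 4.41%, as on chromosomes. From 3080302 to 5748865, 88 cytosines had a level of 40.8% ± 4.06 and an intermediate share of 75.9%. From 5809526 to 5975892, 172 cytosines were nearly free of methylation, at 0.943% ± 0.209. From 6986693 to 7638560, 668 cytosines had a level of 29.8% ± 2.01 and an intermediate share of 66.4%. The limits of these stretches were drawn after the levels had been seen, so their differences were not tested. Without KZ319282.1 the remaining contig cytosines had a mean level of 29.97% ± 2.14 and an intermediate share of 60.1% ± 3.34 (SD, n = 6).

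The 9 contigs next in number of cytosines, from 173 to 248, were alike in level but not in coverage. PEKD01005858.1 had a level of 26.6% ± 1.67 at a coverage ratio of 1.48. PEKD01006973.1 had a level of 27.0% ± 1.42 at a ratio of 10.4, and PEKD01007376.1 had 28.9% ± 1.71 at 12.5. PEKD01007202.1 had 29.1% ± 1.90 at a ratio of 5.07, and PEKD01005177.1 had 29.4% ± 1.78 at 13.9. These contigs all lay far above the chromosomes. PEKD01007146.1 had 30.8% ± 2.05 at a ratio of 3.30, PEKD01007318.1 had 31.5% ± 3.04 at 5.51, PEKD01006979.1 had 32.0% ± 1.76 at 11.03 and PEKD01007414.1 had 32.2% ± 1.60 at 19.7 (SD, n = 6 rams throughout). In each of them between 60.7% and 70.4% of cytosines were intermediate and at most 2.57% were methylated. A single cytosine of PEKD01005177.1 had the highest mean coverage of all contig cytosines, 13592 reads.

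The lowest contigs were almost free of methylation. PEKD01005627.1 had a mean level of 0.364% ± 0.251 over 41 cytosines, PEKD01005921.1 had 0.879% ± 0.454 over 27, PEKD01004955.1 had 1.02% ± 0.327 over 36, PEKD01005527.1 had 1.07% ± 0.351 over 35 and PEKD01006548.1 had 1.36% ± 0.381 over 27 (SD, n = 6). Their coverage ratios, 0.912 to 2.26, were below the median contig. PEKD01005627.1 was also among the 3 contigs of smallest coverage. The other two were PEKD01006151.1, at a ratio of 0.736 and a level of 30.4% ± 1.98, and PEKD01005048.1, at 0.775 and 7.66% ± 0.474. Low coverage was thus found in contigs with mean levels from 0.364% to 30.4%.

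At the top stood PEKD01006187.1, with 49.8% in Ram424, 57.1% in Ram410 and 63.2% to 66.9% in the other 4 rams. It was the contig with most methylated cytosines among those named, 52.5%. PEKD01005855.1 had 53.7% in Ram410, 71.0% in Ram423, 61.7% in Ram444, 66.5% in Ram424, 48.9% in Ram498 and 46.3% in Ram511. Its SD of 9.92 points between rams was the largest of the 146 contigs, where the median SD was 2.25 points. PEKD01006828.1 had 48.1% ± 5.33, PEKD01006607.1 had 47.0% ± 5.05 and PEKD01006231.1 had 46.1% ± 5.23 (SD, n = 6). In these 3 contigs 81.1% to 93.9% of cytosines were intermediate. The next largest SDs between rams were found in PEKD01007189.1 (6.83 points), PEKD01007200.1 (6.63 points), PEKD01005214.1 (6.61 points) and PEKD01007434.1 (6.58 points). In all 4, Ram498 and Ram511 had lower levels than Ram423, Ram444 and Ram424.

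The most deeply covered contigs did not share a level. PEKD01007420.1 reached a coverage ratio of 108 and a level of 31.6% ± 2.75, and PEKD01006574.1 a ratio of 62.8 and a level of 41.7% ± 6.14. PEKD01007056.1, at a ratio of 29.9, had 36.6% ± 4.50. By contrast, PEKD01007170.1, at 38.2, had 14.4% ± 4.38, and PEKD01006704.1, at 33.0, had 10.8% ± 3.29 (SD, n = 6). In the last 2 contigs, 77.5% and 84.3% of cytosines were unmethylated.

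Rams differed in how deeply a contig was covered. After division by the chromosome coverage of the ram, the highest and lowest rams differed by a median of 1.97 times over the 146 contigs and by over 3 times in 15, whereas the largest such range on a numbered chromosome was 1.17 times. The 5 contigs with the widest range, PEKD01007039.1, PEKD01006231.1, PEKD01007170.1, PEKD01006187.1 and PEKD01006574.1, were picked after the values had been seen. The coverage ratio of PEKD01006231.1 was 17.7 in Ram423 and 16.7 in Ram511 but 3.07 to 3.93 in the other 4 rams, so it was high in 1 ram of each diet. That of PEKD01007170.1 was 90.1 in Ram498 and 55.4 in Ram511 and 17.6 to 23.4 in the others. That of PEKD01007039.1 was 4.47 in Ram410 and 0.663 in Ram498, a range of 6.75 times and the widest found.

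Part of this range came from short runs of cytosines. In PEKD01007170.1, 40 cytosines between positions 21603 and 21753 each differed over 50-fold between rams in relative coverage. Their mean coverage was 38.2 reads in Ram410, 50.8 in Ram423, 45.5 in Ram444 and 46.0 in Ram424. In Ram498 it reached 7228 reads, and in Ram511 it reached 2715. The other 68 cytosines of the contig had mean coverages of 636 to 1423 reads. The level of the run was 10.4% in Ram498 and 11.4% in Ram511, and 10.5% to 25.02% in the rams with few reads. In PEKD01006231.1, 9 cytosines differed over 10-fold, with 2344 reads in Ram423, 2983 in Ram511, 310.3 in Ram498 and 44.1 to 80.4 in the other 3 rams. Their levels, 51.1% in Ram423 and 39.4% in Ram511, were close to those of the other 48 cytosines of the contig in the same rams, 50.01% and 39.2%. In all, 407 contig cytosines (2.74%) on 78 contigs differed over 10-fold between rams, against 268 (0.0148%) on chromosomes. Among cytosines of at least 100 reads the order turned, with 6.03% on contigs and 12.7% on chromosomes. Since the table holds only cytosines with 10 reads in every ram, a site missing in a ram would not be listed.

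**Figure D4:**
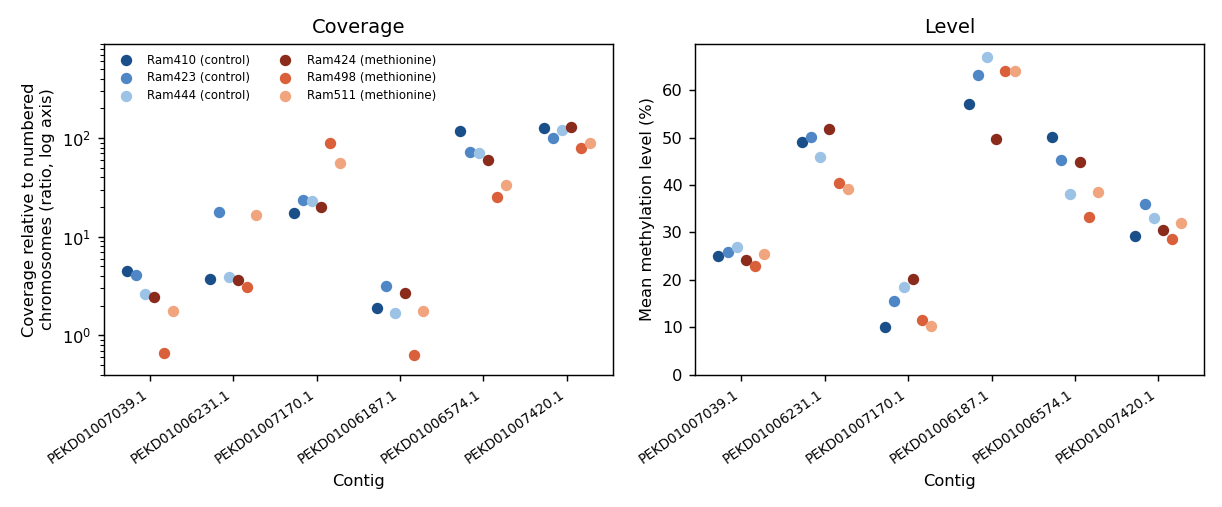
Coverage relative to numbered chromosomes (left, ratio, log scale) and mean methylation level (right, %) in each of 6 rams for the 5 contigs with the widest coverage range between rams and for PEKD01007420.1, the most deeply covered contig. Ram423 and Ram511 stand above the other rams in PEKD01006231.1, and Ram498 and Ram511 in PEKD01007170.1.

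To see whether the diet changed methylation on contigs, the mean level was compared over rams. Control rams had 29.5% ± 1.36 and methionine rams 27.3% ± 2.21 (SD, n = 3 each), a difference of -2.16 points (exact two-sided permutation p = 0.3, where 0.1 is the smallest p that 20 assignments allow). The groups overlapped, since Ram424 lay within the control range of 28.3% to 31.0% and both other methionine rams lay below it. The contig level minus the chromosome level of the same ram was 16.5 ± 1.23 points in control and 14.7 ± 1.47 points in methionine rams (SD, n = 3 each, exact permutation p = 0.3). In pooled reads the methylated share on contigs was 31.0% ± 0.902 against 25.9% ± 4.10 (SD, n = 3 each, exact permutation p = 0.2). On the chromosomes it was 14.4% ± 0.454 against 9.51% ± 4.69, so that the difference of -4.89 points there was close to the -5.06 points on contigs. Leaving out 1 ram moved the difference in contig level to -1.16 points without Ram498, to -1.41 without Ram423 and to -3.35 without Ram424 (exact permutation p = 0.1, the smallest possible). Without Ram498 and Ram511, the libraries in which coverage depended on the level, the remaining methionine ram was 0.215 points above the control mean. The part of this property of the libraries in the diet values was not tested.

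Lower levels in methionine rams were frequent by contig. The mean was lower in 136 of 146 contigs, with a median difference of -1.86 points, and in 26 of 26 numbered chromosomes, with a median of -0.439 points. On the logit scale of summed reads the order turned, with a median log2 difference of -0.15 on contigs and -0.78 on chromosomes in the limma fit. With logit levels averaged over cytosines, the medians were -0.17 on contigs and -0.33 on chromosomes. With summed reads but without Ram498 and Ram511, they were -0.062 on contigs and 0.027 on chromosomes. Ram498 was the lowest ram in 97 contigs and Ram511 in 22, while Ram423 was the highest in 92 and Ram424 in 26. By ram, the level was below the mean of the controls in 139 contigs for Ram498, 115 for Ram511 and 81 for Ram424, with median differences of -3.66, -0.969 and -0.147 points. The 5 contigs with the largest diet difference were PEKD01005855.1 (-8.22 points), PEKD01007434.1 (-7.73), PEKD01005860.1 (-7.32), PEKD01006946.1 (-6.72) and PEKD01005521.1 (-6.43). In PEKD01005860.1, with 117 cytosines, the level was 44.2% in Ram410, 48.5% in Ram423, 45.5% in Ram444 and 45.2% in Ram424. It was 34.9% in Ram498 and 36.2% in Ram511. Ram424 thus stood with the control rams in this contig.

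**Figure D5:**
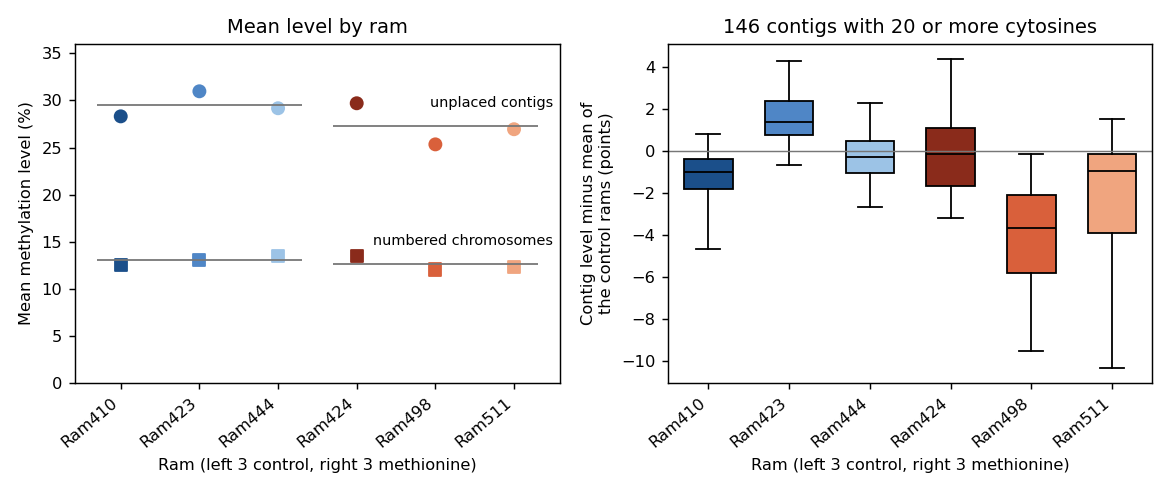
Mean methylation level (left, %) by ram on unplaced contigs (circles) and numbered chromosomes (squares) with group means as lines, and, for 146 contigs, the level in each ram minus the mean of the control rams (right, points, boxes with median and quartiles, whiskers from the 5th to the 95th percentile). The median of Ram424 is -0.147 points, near 0, and those of Ram498 and Ram511 are -3.66 and -0.969 points.

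No contig passed the test between diets. In a limma fit over 146 contigs and 27 chromosomes on the logit of summed reads, 0 contigs were called at an adjusted p under 0.05, where 0% of all 173 units were called. The smallest adjusted p of a contig was 0.471, and 1 contig had an unadjusted p under 0.05. That contig was PEKD01005732.1, named after its values were seen, with a log2 estimate of -1.04 on the tested scale of summed reads. Its mean level, which was not the measure tested, was 12.1% ± 1.19 in control and 10.7% ± 1.44 in methionine rams (SD, n = 3 each). Logistic regression on the summed reads called 3 of 146 contigs and 0 of 27 chromosomes. Ram424 decided the limma count. Without it, limma called 33 of 146 contigs and 60 of all 173 units (34.7%), so the contig share was below that of all units. The 33 contigs were all lower in the remaining methionine rams, Ram498 and Ram511, in which coverage depended on the level. Without Ram498 and Ram511, 0 contigs were called and 6 had an unadjusted p under 0.05.

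No single cytosine on a contig was called differentially methylated either. With a rule of q under 0.01 and more than 20 points of difference, the logistic regression with overdispersion called 0 of 14866 contig cytosines, while 0.0184% of all cytosines tested were called. At an unadjusted p under 0.05 there were 1012 contig cytosines (6.81%), against 2.94% of the whole table. Of these, 84.0% were lower in methionine rams on contigs and 69.9% in the whole table. Limma on logit levels called 0 and gave 564 (3.79%) at an unadjusted p under 0.05, below the 5.41% of the whole table. At q under 0.01 with a difference of any size, 9 contig cytosines (0.0605%) passed, against 0.0189% of the whole table. The 9 differed by at most 16.3 points. Of them 8 were lower, as were 299 of the 350 that passed in the whole table. The F test gave 0 called cytosines on contigs and 0 in the whole table. Leaving out Ram424 raised the calls on contigs to 33 (0.222%, when 0.0769% of the whole table was called) and leaving out Ram410 to 8 (0.0538%, against 0.0461%). Leaving out Ram423 gave 1 (0.00673%, against 0.0283%), Ram498 2 (0.0135%, against 0.0302%) and Ram511 3 (0.0202%, against 0.0241%), all below the background.

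The 5 contig cytosines with the smallest p had high coverage and small differences. At position 12151 of PEKD01006231.1 on the plus strand the level was 52.9% in Ram410, 43.2% in Ram423 and 43.1% in Ram444, against 40.4% in Ram424, 31.8% in Ram498 and 33.2% in Ram511. The pooled difference there was -10.1 points with q = 1.17e-12 by logistic regression. Coverage at this site was 51 reads in Ram410 and 4452 in Ram511, so a few rams carried the pooled value. More even coverage was found in PEKD01007022.1 at positions 8710 and 8711, the strands of a CpG site. At position 8710, with 808 to 1192 reads per ram, the level was 41.4% in Ram410, 40.7% in Ram423, 37.4% in Ram444, 31.6% in Ram424, 31.7% in Ram498 and 30.9% in Ram511. At position 8711 the control mean was 45.3% ± 3.15 and the methionine mean 35.2% ± 0.423 (SD, n = 3 each). Here all methionine rams, Ram424 included, lay below all control rams, at a site picked by the p of this same comparison.

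PEKD01005469.1 gave a like picture at position 16820. The control rams had 54.1%, 59.2% and 55.0%, and the methionine rams had 45.7%, 46.5% and 44.4%, at 985 to 1441 reads. By contrast, at position 15750 of PEKD01004980.1 the pooled difference was 14.3 points, while Ram498 and Ram511 had only 20 and 18 reads there and levels of 65% and 61.1%. The control rams had 59.0% to 61.8% at this site, and Ram424 had 75.8%. This was the single one of the 9 cytosines that was higher in methionine rams, and its difference came from Ram424.

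Windows of 200 bp gave the same count. Of 8467 contig windows with at least 3 cytosines, 0 were called under the same rule by the logistic regression, while 0.0635% of all windows were called. At an unadjusted p under 0.05 there were 826 (9.76%, of which 91.5% lower), against 7.14% of all windows, of which 58.1% lower. At q under 0.01 with any difference 13 contig windows (0.154%) passed, all lower. Of all windows 872 (0.154%) passed, 768 of them lower, so the contig share was at the background here. Without Ram424 the called windows rose to 27 (0.319%, against 0.408% of all windows), and without Ram410 to 7 (0.0827%, against 0.179%). Both shares lay below the background. The first window by p covered positions 22001 to 22200 of PEKD01006537.1 and 4 cytosines. Its level was 48.4% in Ram410, 50.3% in Ram423, 46.5% in Ram444, 40.5% in Ram424, 33.2% in Ram498 and 32.8% in Ram511. A second window of this contig, from 32351 to 32550, had 49.9% ± 0.898 in control and 38.3% ± 3.34 in methionine rams. The other 3 of the 5 windows overlapped in PEKD01005822.1 between 17751 and 18050, of which the one from 17801 to 18000 had 43.3% ± 0.638 in control and 36.3% ± 1.65 in methionine rams (SD, n = 3 each). The window from 17851 to 18050 held the same counts as this one. In these 5 windows every methionine ram was below every control ram, but they were picked by the p of this same comparison. How many of all windows separate in this way is not given here.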

How the data were processed

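Sperm DNA of 6 rams was measured by RRBS. Per the methods and labels, the authors trimmed reads with Trim Galore, aligned them to Oar_rambouillet_v1.0 with Bismark and Bowtie2, used unique molecular identifiers against duplicates and retained only the cytosines that every sample covered with 10 reads or more. The deposited values are counts of methylated and unmethylated reads per cytosine, strand and ram, whose sum equalled the coverage in every case. The embryo gene counts were not used, and a gene table of another build was not used. The age of each ram, a covariate of the study, was not in the labels.

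Levels and shares were computed per ram. Contigs and chromosomes were compared by exact sign-flip tests over 6 rams, diets by exact permutation over 20 assignments, and cytosines and windows of 200 bp (steps of 50 bp) by logistic regression with an overdispersion of at least 1, a chi-square test and Benjamini-Hochberg adjustment over the whole table. Contigs with at least 20 cytosines were fitted with limma 3.58.1 in R 4.3.3, with 0.5 added to the read sums. Other steps used Python 3.11.15 with scipy 1.17.1, pandas 2.3.3, numpy 2.4.6 and, for plots, matplotlib 3.10.9. The scripts were tested on simulated data.

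The contigs named are the 10 with most cytosines, the 5 lowest and 5 highest in level, the 5 with the largest SD, coverage and diet difference and the 3 with the smallest coverage. Cytosines and windows named are the 5 with the smallest p. The members and lists were chosen with earlier results of these data known. The alternatives were other coverage limits, summed strands, pooled reads, each contig counted once, no KZ319282.1, chromosome X included, other tests and thresholds, and each ram left out. Coverage classes and the fit without Ram498 and Ram511 were added after the values were seen. Errors after ± are SDs between rams.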

Additional observations from a re-analysis of the deposited data

How the results depend on the processing

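The diets could not be compared in pairs, because control and methionine rams share no replicate numbers. The contig minus chromosome differences kept their direction in every alternative except 2. With at least 20 reads in every ram, the methylated share was higher on contigs, by 1.41 points, and the level difference was 25.6 points. At a mean coverage of 200 reads or more, the level difference was -7.19 points and that of the intermediate share 3.82 points, no longer past the threshold. Leaving out each ram gave differences of 15.1 to 16.1 points in level, -45.7 to -44.0 in the unmethylated, 50.7 to 52.3 in the intermediate and -6.68 to -6.50 in the methylated share, and 2.60 to 2.71 in the log2 coverage ratio, where 5 rams cannot give an exact permutation p below 0.0625. Without Ram498 and Ram511 these were 16.4, -46.4, 53.0, -6.56 and 2.76, where 4 rams cannot go below 0.125. The diet difference in contig level was 0.215 points without these 2 rams, the only alternative that reversed it, and 3 cytosines (0.0202%, against 0.0637% of the whole table) and 5 windows (0.0591%, against 0.230%) were then called, with Ram424 assumed to vary like the controls. Leaving out each ram gave 0 to 33 called cytosines (at most 0.222%, against 0.0241% to 0.0769% of the whole table). It gave 0 to 27 windows (at most 0.319%, against 0.0643% to 0.408%) and 0 to 33 of 146 contigs. The 33 contigs were found without Ram424, when 60 of all 173 units were called. Without the overdispersion correction, 70 cytosines (0.471%, against 0.319%) and 38 windows (0.449%, against 0.986%) were called. A threshold of q under 0.05 gave 2 cytosines (0.0135%, against 0.0286%), and summed strands gave 1 cytosine (0.00779%, against 0.0263%). Logistic regression on summed reads gave 3 of 146 contigs and 0 chromosomes. The cause of these changes was not tested. A group size of 3 rams and a median coverage of 39 to 48 reads limit the precision of single sites.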
